A study of Mus musculus with 2 samples.

Results

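The genes Snap25, Vamp1 and Cplx2, whose products act in the release of synaptic vesicles, were followed in a pair of iCLIP libraries from mouse forebrain neurons in culture. The reads taken for each gene were the plus-strand reads lying wholly inside a fixed mm9 window. The windows ran from 136535000 to 136610000 on chromosome 2 for Snap25, from 125163000 to 125176000 on chromosome 6 for Vamp1 and from 54468000 to 54486000 on chromosome 13 for Cplx2. They held 1291 of the 64820 reads precipitated with anti-Rbfox1 antibodies and 2 of the 569 reads precipitated with anti-Flag antibodies, which served as the control. In clusters of crosslinks, this was 26 of 10134 and 1 of 233. Because the genes had been picked for their reads in these libraries, their read counts are given as a description without a test.

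Both libraries came from 14-day cultures (14 DIV) that were cooled on ice, crosslinked with 500 mJ/cm2 of 254 nm ultraviolet light and opened with Triton X-100, so that the released cytoplasmic fraction could be precipitated. The groups differed only in the antibody, with 1 library each and no replicate. No genotype or treatment beyond this is given, and neither the number of animals or cultures pooled nor the mix of cells in the cultures is stated in the labels. In iCLIP, reverse transcription tends to stop at the base where a protein was joined to the RNA, and the position just upstream of a read marks this crosslink. The labelled cell type was not checked against marker genes, since no mm9 annotation was used here.

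Synaptic vesicles fuse with the plasma membrane when SNARE proteins on both membranes zip into a helical bundle. Snap25 encodes a SNARE of the target membrane, Vamp1 (synaptobrevin) a SNARE of the vesicle, and Cplx2 a complexin, a small protein that binds the assembled SNARE bundle and controls calcium-triggered release. Rbfox1 is a neuronal RNA-binding protein known to recognise the letters UGCAUG, or GCAUG, in RNA. Its nuclear form is known for regulating splicing, and its cytoplasmic form for binding in 3′ untranslated regions (3′ UTRs).

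The known Rbfox letters were looked for in the 3′ UTRs of these genes, and the matches are shown because they are the sequence element that the precipitated protein is known to bind. One principal transcript per gene was read from GENCODE M21 on GRCm38, Snap25-201, Vamp1-201 and Cplx2-201. TGCATG, written as in DNA on the strand of the transcript, occurred 1 time in the 1285-base 3′ UTR of Snap25, 4 times in the 2240 bases of Vamp1 and 4 times in the 4208 bases of Cplx2. Each match is printed 5′ to 3′ with 7 bases on either side, the motif is in capitals, and bases are counted from the first base after the stop codon.
Snap25 from base 587: gcatttaTGCATGagaacta
Vamp1 from base 435: ctgccagTGCATGtgtatat
Vamp1 from base 931: tgagagcTGCATGgcaagac
Vamp1 from base 1206: ctcccttTGCATGctgtgtt
Vamp1 from base 1850: acccatgTGCATGagcaaat
Cplx2 from base 1525: ttgagatTGCATGtgtgtgt
Cplx2 from base 1662: ttcagatTGCATGtgctagc
Cplx2 from base 1682: ttgtataTGCATGtacttgc
Cplx2 from base 3079: ccacacaTGCATGggagggc

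These matches were set beside all 3′ UTRs of at least the same length, cut to that length from their 5′ end. Of 7694 such stretches as long as that of Snap25, 35.5% held TGCATG at least 1 time. Of 4071 as long as that of Vamp1, 53.01% held it and 1.60% held it at least 4 times. Of 1074 as long as that of Cplx2, 76.1% held it and 9.12% held it at least 4 times. The shorter GCATG, which includes every TGCATG, occurred 3 times in Snap25, 7 times in Vamp1 and 9 times in Cplx2, counts that 14.7%, 1.18% and 3.54% of stretches of those lengths reached. GCACG, a further known Rbfox variant, occurred 0 times in Snap25, 1 time in Vamp1 and 2 times in Cplx2. At least 1 match was held by 22.4% of the stretches of the Snap25 length and 33.8% of those of the Vamp1 length, and at least 2 by 18.2% of those of the Cplx2 length. The shorter 3′ UTRs annotated for these genes, with 208 bases in Snap25-202, 739 in Vamp1-202 and 64 in Vamp1-206, held 0 matches to any of the 3 motifs. How many other 3′ UTRs cut to these short lengths hold 0 matches was not counted. Vamp1-203 held the same numbers as Vamp1-201. The crosslinks are in mm9 and were not placed on these transcripts, so whether any crosslink lay near a printed motif was not analysed here, nor whether clusters lay in exons, introns or UTRs. GENCODE puts the 3 genes on the same chromosomes and on the plus strand.

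The genes differed widely in the share of the anti-Rbfox1 library they held. Snap25 held 853 reads, or 1.32% of the library (exact 95% interval 1.23 to 1.41, counting error only, as for all intervals here). Cplx2 held 410 reads, or 0.633% (0.573 to 0.697). Vamp1 held 28 reads, or 0.0432% (0.0287 to 0.0624). By reads the order was Snap25, Cplx2, Vamp1, which describes the reads on which the genes were picked. The 3 windows together held 1.99% (1.89 to 2.10) of the library.

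The lead of Snap25 over Cplx2 depended on what was counted. By reads it was 2.08-fold (95% interval 1.85 to 2.35). By distinct crosslink positions, 319 in Snap25 and 259 in Cplx2, it was 1.23-fold. By clusters, 10 and 9, it was 1.11-fold, and by bases covered by clusters, 854 and 813, it was 1.05-fold. Snap25 thus exceeded Cplx2 more in reads per position, 2.67 against 1.58, than in the number of crosslink positions or of covered bases. By positions, Snap25 held 0.666% of the library, against 1.32% by reads. Vamp1 had 23 positions in 7 clusters over 325 bases and was lowest by each measure. Read counts depend on the abundance of the RNA in the cytoplasm, which was not measured here, so a larger share cannot be told apart from more RNA. The shares are also per window, not per length of RNA.

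The antisense strand of the windows was empty in both libraries. In the anti-Rbfox1 library, 0 minus-strand reads lay in the 3 windows, against 1291 plus-strand reads, on which the genes were picked. How often other windows of this size hold 0 reads on a strand was not counted, so the 0 is a description only. The nearest plus-strand anti-Rbfox1 reads outside the windows were 159771 bases downstream of that of Snap25, 175215 upstream of that of Vamp1 and 196298 downstream of that of Cplx2.

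In the control library, Snap25 and Vamp1 were each at 0 of 569 reads, for which 3 counts would be a share of 0.527% and the upper end of the exact interval is 0.646%. Cplx2 had 2 control reads, 0.351% (0.0426 to 1.26). By reads, the Snap25 share of the anti-Rbfox1 library, 1.32%, was larger than both limits given for 0 control reads. By distinct positions it was 0.666%, but those limits count reads. No limit was computed over the 525 control positions, so whether Snap25 exceeded the control by positions was not tested. The control held 0 clusters of a single position, and whether lone reads were removed before deposit is not stated. Both limits take the reads as deposited and make no allowance for such a removal. The comparison describes 1 library each and is no test. At an equal share 7.49 control reads would have fallen in the Snap25 window, 3.60 in the Cplx2 window and 0.246 in the Vamp1 window. For Vamp1 the control was thus too small to show a difference, and for Cplx2 the intervals of both libraries overlapped.

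The file lines fall into blocks in which the chromosome order starts again, 11 in the anti-Rbfox1 and 7 in the anti-Flag file, whose meaning the labels do not state. Of the members' anti-Rbfox1 reads, 98.8% lay in the fourth block, which held 74.15% of that library. The control block that overlapped it held 185 reads, 32.5% of the control. Within this pair of blocks Snap25 held 837 of 48064 anti-Rbfox1 reads, 1.74% (1.63 to 1.86), against 0 of 185 control reads. That 0 allows 1.62% when 3 counts are taken as the limit, and the upper end of its exact interval is 1.97%. At an equal share of the block, 3.22 control reads would have fallen there. The 2 values for the limit lie on either side of the anti-Rbfox1 share, so within the block the Snap25 difference was not detectable at this depth. Cplx2 held 0.853% (0.773 to 0.939) of the anti-Rbfox1 block and 1.08% (0.131 to 3.85) of the control block, and Vamp1 0.0583% (0.0387 to 0.0842) of the former.

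**Figure D1:**
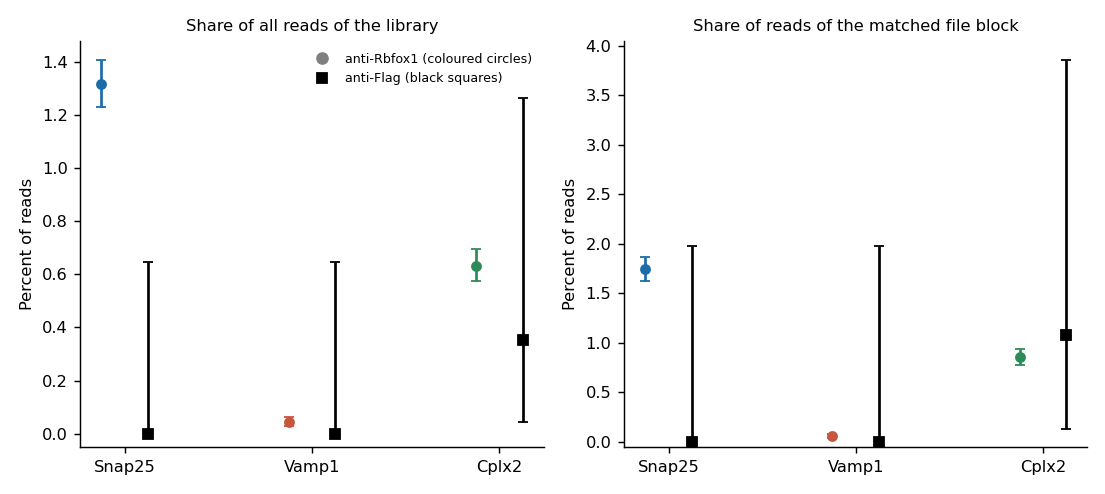
Percent of reads in each gene window, for all reads of a library (left) and for the matched file block (right), with exact 95% intervals as bars, anti-Rbfox1 as coloured circles and anti-Flag as black squares. The Snap25 circle lies at 1.32% on the left, above the bar of its control, while on the right, at 1.74%, it lies within that bar. The bars make no allowance for lone reads removed before deposit.

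Snap25 carried nearly all its reads in 1 compact stretch. Between 136607185 and 136608146 on chromosome 2 (plus strand; crosslink coordinates are all mm9), 6 clusters over 962 bases held 837 reads, 98.1% of the window. It ranked first by reads among the 7297 stretches of the library, which join clusters within 1000 bases of each other. From its upstream end, the 6 clusters held 147, 70, 41, 51, 416 and 112 reads at 55, 25, 15, 16, 153 and 40 crosslink positions. The gaps between neighbouring clusters were 147, 49, 44, 8 and 22 bases. The clusters thus stood closer to each other toward the downstream end, where the deepest one lay.

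The highest single position of Snap25 was not in its deepest cluster. Position 136607234, in the most upstream cluster of the stretch, held 15 reads and was in place 5 among the 47896 positions of the library, tied with another. Position 136607233, next to it, held 10. In the deepest cluster, from 136607762 to 136608035, position 136607835 was highest with 12 reads, 2.88% of the 416 reads there. The upstream cluster was thus the more focused, with 10.2% of its 147 reads on 1 base, and the deepest one was broad.

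In the deepest Snap25 cluster, crosslinks spanned 229 bases, of which 66.8% held at least 1 read. By 50-base segments from the upstream end, it held 69, 109, 86 and 74 reads, and 78 in the last 29 bases. No segment was empty. The middle 50% of its reads had crosslinks spread over 105 bases. With crosslinks joined within 10 instead of 20 bases, it came apart into 3 groups of 49, 267 and 100 reads, from 136607761 to 136607790, from 136607801 to 136607933 and from 136607947 to 136607989. Its share of the window was 48.8% with the wider distance and 31.3%, that of the middle group, with the narrower.

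The other 16 Snap25 reads lay 7469 bases or more upstream of the stretch, in 4 shallow clusters. These were 8 reads from 136595794 to 136595839, 2 from 136597745 to 136597776, 4 from 136598716 to 136598753 and 2 from 136599670 to 136599715. All came from other blocks of the file than the stretch, with 6 reads in the first block and 10 in the ninth. In the first block no reads share a leftmost base, so that a plus-strand position there holds 1 read at most.

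**Figure D2:**
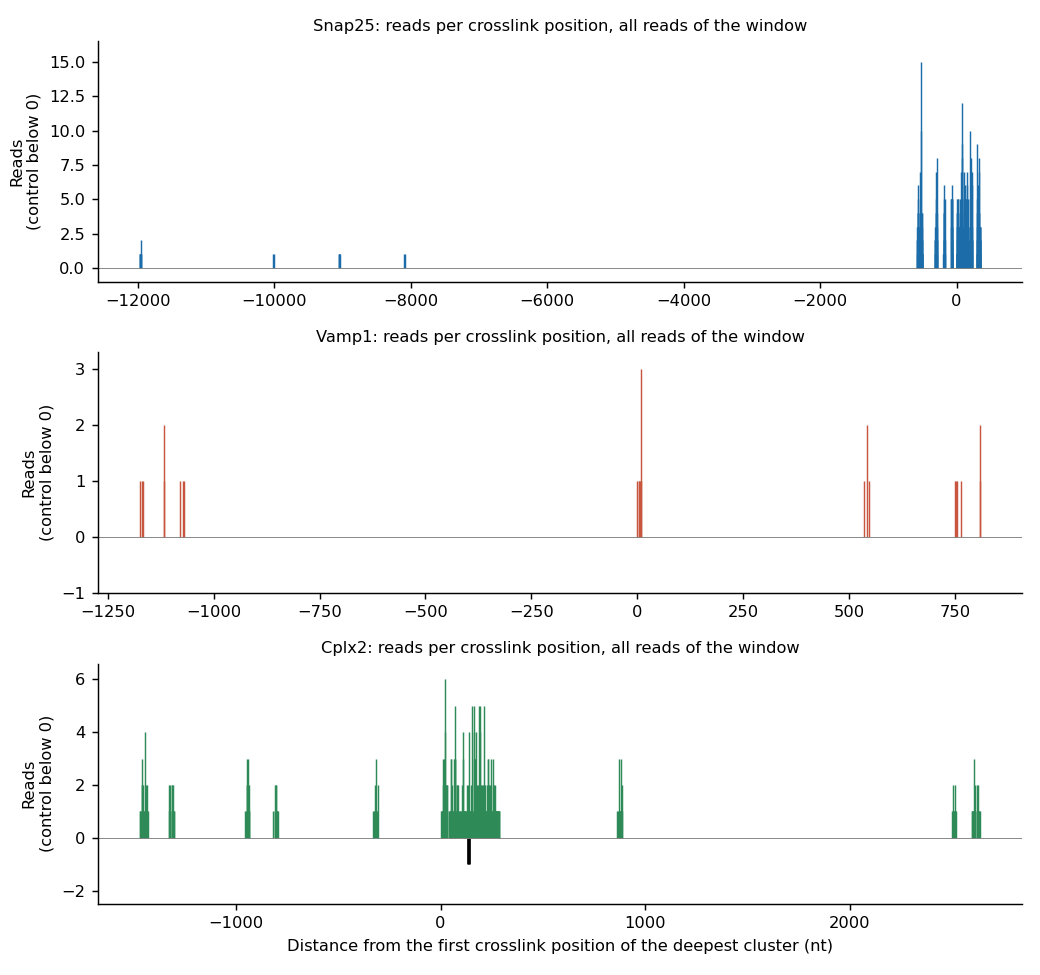
Anti-Rbfox1 reads at each crosslink position of the 3 windows, against the distance in bases from the first crosslink of the deepest cluster, with control reads drawn below 0 in black. The Snap25 signal is packed around the origin apart from 16 reads far upstream, Cplx2 has a broad centre with smaller clusters on both sides, and Vamp1 never exceeds 3 reads at a position; the vertical scales differ.

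Vamp1 had scattered, shallow clusters. Its 28 reads fell into 7 clusters of 3 to 8 reads between 125170122 and 125172138 on chromosome 6. An upstream stretch of 131 bases held 3 clusters of 3 reads each. A downstream stretch of 843 bases, from 125171296 to 125172138, held 19 reads in clusters of 8, 4, 4 and 3. The 2 stretches were 1043 bases apart and merged into 1 when clusters within 2000 bases were joined. The deepest Vamp1 cluster, from 125171296 to 125171361, held 8 reads at 6 positions, of which 125171304 held 3. All Vamp1 clusters lay in the fourth file block.

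Cplx2 combined 1 broad, deep cluster with a chain of smaller ones. The deep cluster lay from 54482586 to 54482891 on chromosome 13 and held 265 reads at 156 positions, 64.6% of the window. The other 8 clusters held 12 to 30 reads each. Upstream, clusters of 30, 17, 20, 13 and 14 reads started at 54481117, 54481259, 54481632, 54481769 and 54482256. Downstream, a cluster of 17 reads started at 54483450, and after a gap of 1576 bases came clusters of 12 and 22 at 54485086 and 54485183. On the genome the longer of the 2 Cplx2 stretches spanned 2393 bases with 7 clusters (376 reads, ranked ninth among all stretches), against 962 bases in Snap25, and the other spanned 162 bases with 2 clusters. The bases covered by clusters were nearly equal, as given above. Per 100 genomic bases of the longer stretch there were 15.7 reads in Cplx2 and 87.0 in Snap25.

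The deep Cplx2 cluster was flat. Its crosslinks spanned 289 bases, of which 54.0% were occupied, and no position held more than 6 reads, 2.26% of the cluster. By 50-base segments it held 44, 41, 38, 63 and 50 reads, and 29 in the last 39 bases. Unlike the deepest Snap25 cluster it stayed in 1 piece when crosslinks were joined within 10 bases, since its longest gap between occupied positions was 9 bases, against 14 in Snap25. With 5 bases it split into 5 groups of 39, 14, 50, 26 and 136 reads, and the Snap25 cluster into 4 of 49, 126, 141 and 100.

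Both control reads of Cplx2 lay inside this deep cluster. They had crosslinks at 54482721 and 54482722, 1 base apart, and ended at the same base, 54482746, and whether they came from 1 molecule cannot be told from the file. Each overlapped 35 anti-Rbfox1 reads. At their crosslink positions the anti-Rbfox1 library had 0 and 1 reads, and 10 within 5 bases of each, and 2 anti-Rbfox1 reads ended at that same base. Of all anti-Rbfox1 clusters 0.572% overlapped a control read, and of the 47 clusters of at least 100 reads 14.9% did. Among the 26 clusters of the 3 genes it was 1, and among the 4 of at least 100 reads likewise 1.

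**Figure D3:**
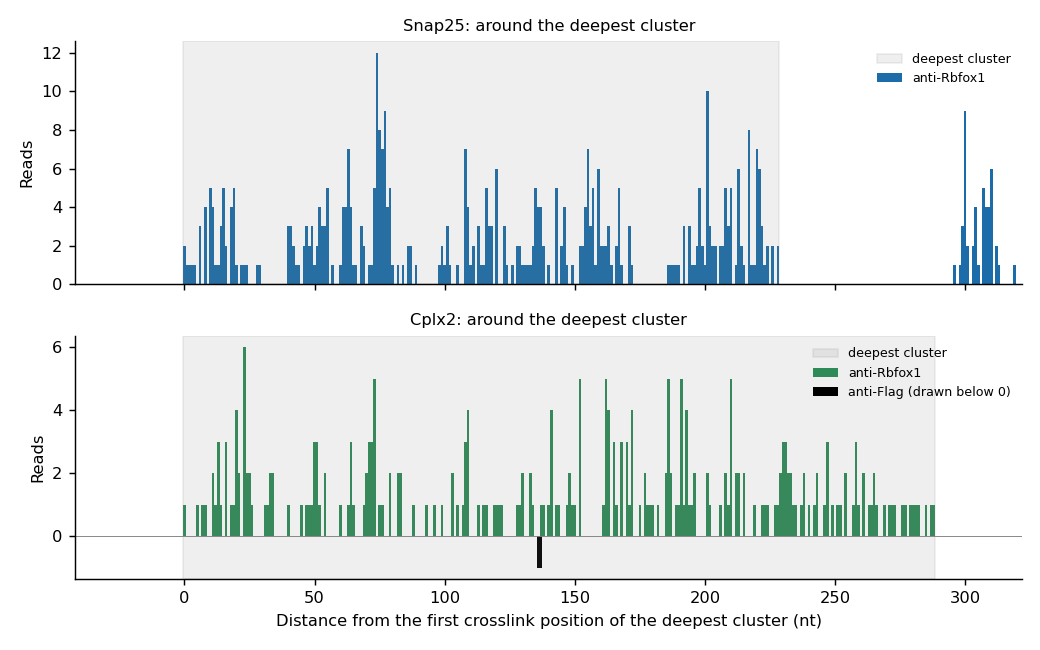
Reads at each crosslink position around the deepest cluster of Snap25 (top) and Cplx2 (bottom), against the distance in bases from its first crosslink, with the cluster shaded and control reads drawn below 0. Snap25 shows separate heaps with up to 12 reads at a base, while in Cplx2 no base exceeds 6 and the 2 control reads sit side by side near the middle.

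The clusters of Cplx2, and those of Snap25 in the fourth block, were deeper than those of Vamp1. The other Snap25 clusters held 8, 2, 4 and 2 reads, against 3 to 8 in Vamp1. In the whole library 12.3% of clusters held at least 10 reads, and in the fourth block 22.0% did. In Cplx2 all 9 clusters reached that depth, in Snap25 6 of 10, which were the 6 in the fourth block, and in Vamp1 0 of 7. At least 50 reads were held by 1.75% of all clusters and 3.23% of those in the block, by 5 of Snap25 and by 1 of Cplx2. At least 100 reads were held by 0.464% of all clusters and 0.863% of those in the block, by 3 of Snap25 and by 1 of Cplx2. Since the genes were picked on these reads, the shares describe them and support no further claim.

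By reads the deepest cluster of Snap25 ranked first of 10134, that of Cplx2 sixth and that of Vamp1 1406th, a place shared by 206 clusters of 8 reads. By number of crosslink positions the order of the leaders was turned, with Cplx2 first at 156 positions and Snap25 next at 153. The cluster after that of Snap25 by reads had 298 reads at 143 positions between 73450560 and 73450904 of chromosome 2, minus strand. Cplx2 stood between a plus-strand cluster between 17100215 and 17100377 of chromosome 11, with 268 reads at 104 positions, and a minus-strand cluster between 136384508 and 136384722 of chromosome 5, with 262 at 120. At nearly equal reads the Cplx2 cluster thus had more positions than either neighbour.

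**Figure D4:**
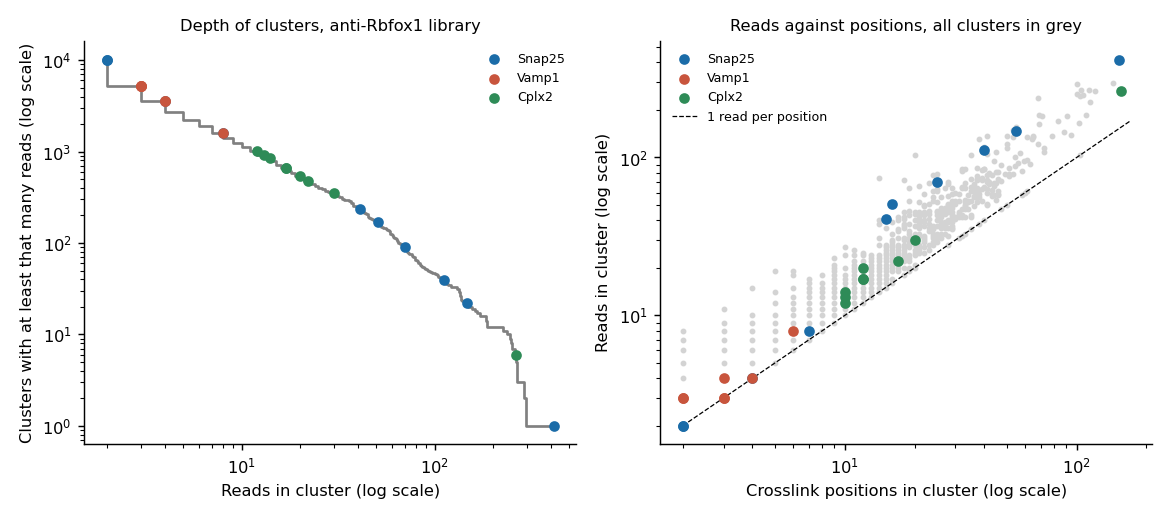
Left, the number of anti-Rbfox1 clusters with at least a given number of reads (log axes), with the clusters of the 3 genes as coloured points. Right, reads against crosslink positions for all clusters (grey, log axes) and those of the 3 genes, where the dashed line marks 1 read per position. Snap25 points reach 416 reads, and at 265 reads the Cplx2 point lies nearer to the dashed line.

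The shape of the deep clusters was set beside that of all clusters of at least 100 reads, which held 101 to 416 reads. By reads the deepest cluster of Snap25 had rank 1 and that of Cplx2 rank 6, so most of the others were shallower. The comparison was not matched for depth, with which these measures can change. Among the 47 clusters of at least 100 reads, crosslinks spanned a median of 140 bases (32 to 289). The Cplx2 cluster was the widest of them, and the deepest Snap25 cluster ranked seventh. Reads per position had a median of 2.36 in these 47 clusters, and the middle 50% ranged from 1.93 to 2.71. The Cplx2 cluster lay below that range at 1.70 and the deepest Snap25 cluster just above it at 2.72, with 2.67 and 2.80 in the other 2 deep Snap25 clusters. The highest position took a median of 5.91% of a deep cluster's reads, against 2.26% in Cplx2, which ranked 46th, and 2.88% in the deepest Snap25 cluster, which ranked 43rd. The upstream Snap25 cluster of 147 reads was narrower, at 76 bases, and was in place 4 by that share. These ranks are descriptions, and no test was made.

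The way reads were stacked on positions differed between Snap25 and Cplx2. Of the 319 Snap25 positions, 37.0% held a single read (95% interval 31.7 to 42.5), of the 259 in Cplx2 64.1% (57.9 to 69.9) and of the 23 in Vamp1 82.6% (61.2 to 95.05). In all clusters of at least 100 reads it was 48.1% (46.4 to 49.7), and in the fourth block 73.5%. No reads in the library share start, end and strand, so several reads at a position always differ in length. Some reads ended at the same base as another read and had crosslinks 1 base apart from it. Of each such pair only the read with the higher crosslink coordinate was counted. Reads counted in this way made up 23.4% of the Snap25 reads (20.6 to 26.4), 12.9% of the Cplx2 reads (9.84 to 16.6) and 0 of the 28 Vamp1 reads. In the library it was 11.0%, and 17.3% of reads in clusters of at least 100. Whether such reads are separate molecules cannot be told from the file. Counted as 1 with the other read of the pair, they left Snap25 at 1.13% of the library, Cplx2 at 0.619% and Vamp1 at 0.0485%. The genes were not matched for depth, with which these measures can change. In the stretch with most reads there were 87.0 reads per 100 genomic bases in Snap25 and 15.7 in Cplx2.

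The medians of read length differed by at most 1 base between the genes and the library. Reads had a median of 28 bases in Snap25 and in Cplx2, 29 in Vamp1 and 28 in the whole library. The middle 50% ran from 23 to 35 bases in Snap25, from 22 to 34 in Cplx2 and from 23 to 35 in the library. Reads shorter than 20 bases made up 8.68% in Snap25 (6.87 to 10.8), 12.2% in Cplx2 (9.19 to 15.8) and 9.86% in the library (9.63 to 10.1), and 2 of 28 in Vamp1. Within the Snap25 stretch the cluster from 136607686 to 136607753 was the exception, with a median of 37 bases and 0 reads under 20. The other 5 clusters of the stretch had medians of 27 to 29. In the exception all 16 bases of the crosslink span were occupied. Outside the stretch, the shallow Snap25 clusters had medians of 30, 24.5, 25.5 and 34. Among the 47 library clusters of at least 100 reads, medians ran from 24 to 38.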

How the data were processed

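The deposited files list aligned reads, 1 per line, with first base, last base, strand and a further position, so their values are positions and carry no score. Bowtie and mm9 are named in the submitters' processing notes. The sources used here do not give their versions and settings, or any collapse of copies or filter. This further position was taken as the crosslink. It directly preceded the read, 5′ of it, in all 64820 and 569 reads. No reads shared start, end and strand, and 0 clusters had a single position, and the sources do not say how this arose in the deposited files.

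Crosslinks within 20 bases on a strand were joined into clusters, and clusters within 1000 bases into stretches. Outer bases of reads give the cluster limits. Blocks of file lines start where the chromosome order goes back, and the control block was matched by the 71 control reads that overlapped the fourth anti-Rbfox1 block. Intervals are exact Clopper-Pearson at 95%, the limit for 0 reads is 3 counts, and both cover counting error only, as amplified reads are not independent molecules. Neither makes allowance for lone reads removed before deposit. The files give 64820 and 569 reads as deposited, and the depth before deposit is unknown.

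The genes, windows and measures were chosen with earlier results of these data known, and the search for motifs in transcripts was added after the files were seen. It read 1 APPRIS principal transcript for each of 20869 genes, the one with the longest 3′ UTR. All clusters of the 3 genes were counted, and those of at least 10 reads are given singly. The clusters next above and below the deepest one were named by rule for Cplx2, and the one next below for Snap25, which ranked first. Those next to the deepest Vamp1 cluster, whose place was shared by 206 clusters, are left out. Other genes of vesicle release, motifs at crosslinks and gene regions had been planned for an mm9 annotation and were not analysed here. The clustering code was run on simulated clusters that were narrower than the joining distance and far apart. That run checks the code only, not how broad or neighbouring clusters are divided. Python 3.11.15, numpy 2.4.6, pandas 2.3.3, scipy 1.17.1 and matplotlib 3.10.9 were used.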

Additional observations from a re-analysis of the deposited data

How the results depend on the processing

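Of 47 alternative values, 30 were taken as the same and 17 moved. Shares and the ratio were judged by the interval of the value reported, and counts of control reads by equality. The intervals are those of read counts, so values by positions, bases or clusters are judged by the interval of another measure. The share of the library in Snap25, 1.32% by reads, was 0.666% by crosslink positions, 1.13% with near-identical reads counted as 1, 0.679% with 1 read per leftmost base, 0.736% with 1 read per 3′ end and 1.74% within the fourth block. That in Cplx2, 0.633%, was 0.541% by positions, 0.551% per leftmost base, 0.484% per 3′ end and 0.853% within the block. That in Vamp1, 0.0432%, stayed within its interval in each setting, but this interval, from 28 reads, was wide (0.0287 to 0.0624). Within the block the Vamp1 share was 0.0583%, so staying inside the interval does not show a steadier share. No window changed when made 5 kb longer on each side. The deepest Snap25 cluster held 31.3% of the window with crosslinks joined within 10 bases. The densest stretch held 95.3% of Snap25 by positions, 87.6% of Cplx2 with clusters joined within 500 bases, and 100% of Vamp1 and 100% of Cplx2 within 2000 bases, which widens the stretch by construction. Snap25 over Cplx2 was 1.23 by positions, 1.11 by clusters and 1.05 by covered bases. Apart from the joining distances the cause was not tested. No paired analysis was possible because there was 1 library per antibody, and no replicate could be left out. The 569 control reads, 185 in the matched block, limit every comparison with the control.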

Other observations

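The tile numbers in the read names, not used above, gave 84.8% of the Snap25 reads (95% interval 82.2 to 87.1), 82.7% of the Cplx2 reads (78.7 to 86.2) and 25 of the 28 Vamp1 reads in the first 16 tiles of the lane, against 81.3% of all anti-Rbfox1 reads (81.0 to 81.6) and 82.5% in the fourth block (82.2 to 82.9). In the deepest Snap25 cluster it was 86.8% (83.1 to 89.9).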
